A study of Homo sapiens with 6 samples.

Results

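The expression of 10 autophagy genes was read from RNA sequencing of KYSE150, a cell line established from a human squamous cell carcinoma of the esophagus. The genes are the cargo receptors SQSTM1 and NBR1, the ATG8 family genes MAP1LC3B, GABARAPL1 and GABARAPL2, the initiation and conjugation genes ULK1, BECN1, WIPI1 and ATG5, and the transcription factor gene TFEB. These 10 genes were chosen by name from the 67140 Ensembl identifiers of the count table, and all 10 were found in GENCODE v44. The cells carried either a control hairpin (shCtrl, 3 samples) or a hairpin against the long non-coding RNA AC007128.1 (shAC007128.1, 3 samples), both in RPMI medium with fetal bovine serum. The labels call the cells transfected and the study's methods describe stable lines selected with puromycin. Each arm is 1 hairpin in 1 cell line, so an effect of the hairpin and a difference between the lines cannot be told apart.

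Macroautophagy encloses cytoplasm in a double membrane, the autophagosome, which then fuses with a lysosome. The ULK1 kinase complex starts the process, and the BECN1 lipid kinase complex marks the membrane with a phosphoinositide that WIPI proteins bind. ATG5, joined to ATG12 and ATG16L1, then attaches ATG8 proteins (the LC3 and GABARAP subfamilies) to the growing membrane. Receptors such as SQSTM1 (p62) and NBR1 bind ubiquitinated cargo with one end and ATG8 proteins with the other, and are degraded with the cargo. TFEB and TFE3 switch on genes of autophagosomes and lysosomes. These data measure RNA only, and RNA levels do not report the rate of autophagy.

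The hairpin's target site, shown because it is the only designed difference between the groups, is written with no base in capitals.

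shAC007128.1 target site: ccacaagtcctggcacatt

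It lies in exon 6 of the 7 exons of an AC007128.1 transcript, at chr7:8343202-8343220 of hg38 on the plus strand. AC007128.1 itself was at a low level in both groups. Its counts were 69, 33 and 53 in shCtrl replicates 1, 2 and 3 and 18, 37 and 15 in shAC007128.1 replicates 1, 2 and 3. The groups overlapped, and the log2 fold change of -0.77 (± 0.51 SE, the standard error, adjusted p = 0.271 by edgeR) did not pass the test. Of its 1853 exonic bases, 782 are shared with other genes. These counts alone do not settle the level of the targeted RNA, and the groups are named by their labels. Depth was 55764405 to 78610457 counts per sample, with the 3 shAC007128.1 libraries all below the 3 shCtrl libraries. Of 9 squamous epithelial markers, 8 were at 1 CPM (counts relative to library size, on edgeR's CPM scale with TMM factors) or more in every sample. SOX2 was the exception, at 0.434 ± 0.137 CPM in shCtrl and 4.6 ± 0.652 CPM in shAC007128.1 cells (SD, n = 3 each). DSG3 was at 203 ± 5.76 and 95.3 ± 9.19 CPM. The summed level of the list was 1852 to 1890 CPM in shCtrl and 2647 to 3191 CPM in shAC007128.1 samples. Fibroblast markers summed to 15.3 to 16.1 and 20.9 to 23.9 CPM, with 4 of 6 genes under 1 CPM throughout. Leukocyte markers summed to 59.4 to 68.3 and 14.8 to 24.1 CPM, nearly all of it CD68. Of the 2163 exonic bases of CD68, 1852 are shared with other genes. Endothelial markers summed to at most 3.11 CPM. The part of these marker differences in the results was not tested.

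Of the 10 genes, 3 rose in shAC007128.1 cells, 4 fell and 3 did not pass the test. ULK1, TFEB and GABARAPL2 rose, while MAP1LC3B, SQSTM1, BECN1 and WIPI1 fell. NBR1, ATG5 and GABARAPL1 did not pass at an adjusted p of 0.05 (edgeR's quasi-likelihood test, Benjamini-Hochberg over all 19254 genes tested). Of all genes tested, 21% were higher and 19.8% lower by the same rule, 40.8% in either direction, beside 7 of the 10 genes. ULK1 and MAP1LC3B also passed the limit of a log2 fold change of 1 in size, 1 gene in each direction, where 5.57% of all genes were higher and 10.1% lower. In 8 of the 10 genes the samples of the groups did not overlap, against 55.2% of all genes. The median log2 fold change of the 10 genes was -0.30, beside -0.02 for all genes. All 10 genes passed the filter on low counts. In bulk RNA, a change in RNA per cell and a change in the share of cells that make it cannot be told apart.

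**Figure D1:**
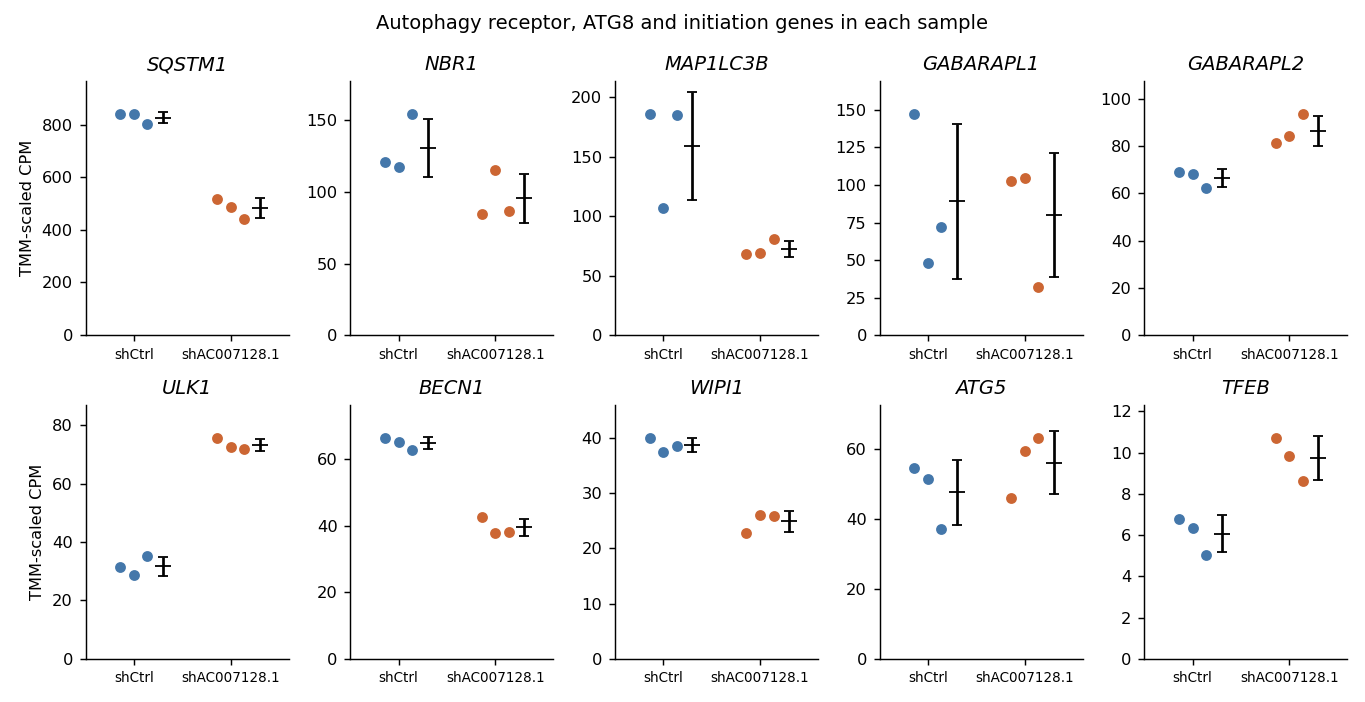
TMM-scaled CPM (vertical axes, from 0, a scale of its own in each panel) of the 10 genes in the 3 shCtrl and 3 shAC007128.1 samples, in the order of replicates 1 to 3. Each point is 1 sample and the bar is the mean with its SD. The groups stand apart in every panel but those of GABARAPL1 and ATG5.

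The receptor gene SQSTM1, the highest of the 10 per kilobase of exon, fell. Besides binding ubiquitinated cargo, p62 binds KEAP1 and so takes part in signaling to NRF2. Its level was 839.4, 838.2 and 801.5 CPM in shCtrl replicates 1, 2 and 3. In shAC007128.1 replicates 1, 2 and 3 it was 515.7, 488 and 440.4 CPM. Every shAC007128.1 sample was thus below every shCtrl sample, and the spread within groups was small, at 2.61% and 7.92% of the mean. The means were 826 ± 21.5 and 481 ± 38.1 CPM (SD, n = 3 each), a log2 fold change of -0.78 (± 0.07 SE, adjusted p = 0.000222 by edgeR). SQSTM1 (ENSG00000161011) lies on chromosome 5 from 179806398 to 179838078 on the plus strand. Of its 7535 exonic bases, 1582 are shared with MRNIP on the opposite strand, and strand use in the counting is not given in the sources used here. MRNIP, at 59.5 ± 0.903 CPM in shCtrl cells (SD, n = 3), fell as well, by 0.38 on the log2 scale (edgeR adjusted p = 0.0065).

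NBR1 is a second ubiquitin-binding receptor, built like p62 with a PB1 domain and an LC3-interacting region. It had 120.7, 117.5 and 154.4 CPM in shCtrl replicates 1, 2 and 3 and 84.7, 115.3 and 86.8 CPM in shAC007128.1 replicates 1, 2 and 3. The groups did not overlap, but shAC007128.1 replicate 2 lay close below the lowest shCtrl sample. The log2 fold change was -0.45 (± 0.16 SE, 95% interval -0.82 to -0.09 for this gene alone). With an adjusted p of 0.0528 in edgeR it just missed the threshold, and it passed in 8 of 15 alternative fits. NBR1 (ENSG00000188554) lies on chromosome 17 from 43170481 to 43211689, and shares 463 exonic bases with a long non-coding RNA on the opposite strand.

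MAP1LC3B encodes LC3B, the ATG8 protein most often used to mark autophagosomes. It had the largest fall of the 10 genes. In shCtrl replicates 1, 2 and 3 it had 185.7, 106.6 and 184.9 CPM. In shAC007128.1 replicates 1, 2 and 3 it had 67.8, 69.1 and 80.5 CPM. Replicate 2 of shCtrl was low among the controls but still above all 3 shAC007128.1 samples. The means were 159 ± 45.5 and 72.5 ± 7.01 CPM (SD, n = 3 each), a log2 fold change of -1.13 (± 0.21 SE, adjusted p = 0.00469 by edgeR). Over the fits that each left out 1 sample, and all other alternatives, the value lay between -1.36 and -1.01. MAP1LC3B (ENSG00000140941) lies on chromosome 16 from 87383953 to 87404779 on the plus strand.

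The near-identical gene MAP1LC3B2, between which and MAP1LC3B reads can be split, was at 2.04 ± 0.408 and 0.949 ± 0.205 CPM (SD, n = 3 each). It fell by 1.10 on the log2 scale (edgeR adjusted p = 0.0151). The pseudogenes MAP1LC3BP1 and SQSTM1P1 were listed at 0 in all 6 samples, which in estimated counts can also be a failed estimate.

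GABARAPL2 (GATE-16), of the GABARAP subfamily that acts mainly late in autophagosome formation, rose slightly. Its levels were 69.1, 68.1 and 62.1 CPM in shCtrl replicates 1, 2 and 3 and 81.3, 84.5 and 93.6 CPM in shAC007128.1 replicates 1, 2 and 3. All shAC007128.1 samples stood above all shCtrl samples. The log2 fold change was 0.38 (± 0.09 SE, adjusted p = 0.0117 by edgeR), and without shCtrl replicate 3 it was 0.33 and missed the threshold (edgeR adjusted p = 0.0538). GABARAPL2 (ENSG00000034713) lies on chromosome 16 from 75566375 to 75577881 and shares no exonic base with another gene.

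GABARAPL1, a stress-responsive member of the same subfamily, varied more within groups than between them. It had 147.2, 48.3 and 71.7 CPM in shCtrl replicates 1, 2 and 3 and 102.8, 105 and 32 CPM in shAC007128.1 replicates 1, 2 and 3. Both groups held high and low samples, and the SD was 58% and 51.9% of the mean in shCtrl and shAC007128.1 cells. The log2 fold change was -0.16 (± 0.53 SE, adjusted p = 0.837 by edgeR), with a 95% interval of -1.39 to 1.08. That interval reaches past a log2 fold change of 1 in both directions, and the sign turned without shCtrl replicate 1 (0.41) or without shAC007128.1 replicate 3 (0.22). The counts behind these levels were 1861 to 10771 per sample. An antisense transcript, GABARAPL1-AS1, shares 329 of the 4053 exonic bases of GABARAPL1 (chromosome 12, 10212458 to 10223128) and was listed at 0. That 0 can also be a failed estimate.

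Expressed per kilobase of exon, which allows genes to be set side by side, the summed ATG8 family level was 100.3 ± 20.2 CPM per kb in shCtrl and 100.7 ± 6.58 in shAC007128.1 cells (SD, n = 3 each). The make-up of that sum differed. MAP1LC3B held 31.1%, 26.9% and 35.3% of it in shCtrl replicates 1, 2 and 3, and 13.6%, 12.7% and 16.8% in shAC007128.1 replicates 1, 2 and 3. GABARAP, the founding member of its subfamily and not among the 10 genes, held 18.1% to 27.6% in shCtrl and 33.2% to 41.6% in shAC007128.1 samples. Neither range overlapped between the groups. Of the 1951 exonic bases of GABARAP, 941 are shared with other genes. GABARAP rose by a log2 fold change of 0.66 (± 0.13 SE, adjusted p = 0.00592 by edgeR). GABARAPL2 held 19.4% to 28.8% and 26% to 32.7%, ranges that overlapped, and GABARAPL1 held 15.2% to 30.6% and 8.32% to 25.5%. MAP1LC3A, at 0 to 13 counts, and MAP1LC3C, at 0 to 3 counts, were too low to test. The lengths are those of all annotated exons of a gene together, so levels of genes with long alternative exons come out low.

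**Figure D2:**
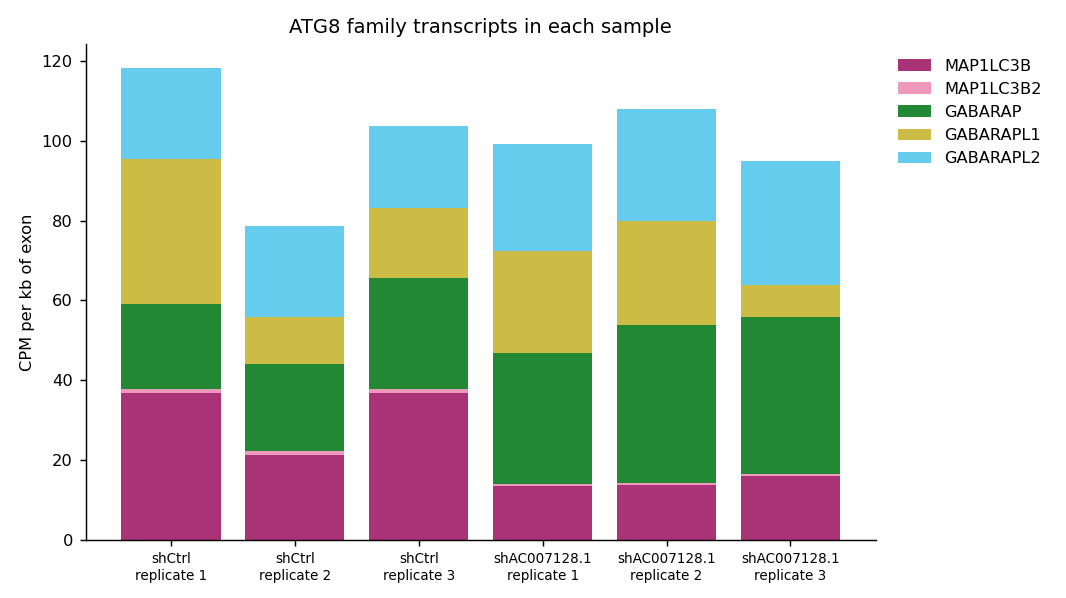
Stacked CPM per kb of exon (vertical axis) of the 5 ATG8 genes with enough counts to test, in each of the 6 samples (horizontal axis). Totals overlap between the groups, while the MAP1LC3B layer is 21.2 to 36.9 CPM per kb in shCtrl and 13.5 to 16 in shAC007128.1 samples.

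ULK1, the kinase that starts autophagosome formation and a substrate of both AMPK and mTORC1, had the largest rise of the 10 genes. It had 31.3, 28.6 and 35 CPM in shCtrl replicates 1, 2 and 3 and 75.6, 72.3 and 71.8 CPM in shAC007128.1 replicates 1, 2 and 3. The lowest shAC007128.1 sample was at more than double the highest shCtrl sample. The log2 fold change was 1.21 (± 0.10 SE, adjusted p = 0.000124 by edgeR), and 1.14 to 1.29 over the 15 alternatives. ULK1 (ENSG00000177169) lies on chromosome 12 from 131894622 to 131923150 on the plus strand and shares no exonic base with another gene. The other subunits of its complex did not rise. ATG101, which stabilizes ATG13, fell by 1.04 (edgeR adjusted p = 0.000132), ATG13 fell by 0.45 (edgeR adjusted p = 0.00531), and the scaffold gene RB1CC1 (FIP200) was at a log2 fold change of 0.08 and did not pass. The paralog ULK2 was at 0 to 4 counts per sample.

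BECN1, the regulatory subunit of the lipid kinase complex and a binding partner of BCL2, fell. Its levels were 66.4, 65.3 and 62.8 CPM in shCtrl replicates 1, 2 and 3 and 42.5, 37.8 and 38.3 CPM in shAC007128.1 replicates 1, 2 and 3. The groups stood clearly apart, with a log2 fold change of -0.71 (± 0.08 SE, adjusted p = 0.000577 by edgeR). Of its 6414 exonic bases (chromosome 17, 42810134 to 42833350, minus strand), 795 are shared with CNTD1 and 300 with PSME3, both on the opposite strand. PSME3 rose (log2 fold change 0.89, edgeR adjusted p = 0.0301), and CNTD1 was under 2 CPM on average in both groups. Some other genes listed with the lipid kinase complex went the other way. ATG14, the subunit that directs the complex to autophagy, rose by a log2 fold change of 1.21 (edgeR adjusted p = 0.000216), and PIK3R4, which encodes the VPS15 subunit, by 0.83 (edgeR adjusted p = 0.00161). In all, 5 of the 8 genes of that list rose and 1, BECN1, fell, where 21% of all genes tested rose and 19.8% fell. The 5 include AMBRA1 and RUBCN, which are regulators rather than core subunits. Of the 11139 exonic bases of RUBCN, 6115 are shared with other genes.

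WIPI1, which binds phosphatidylinositol 3-phosphate on the forming membrane, also fell. It had 40, 37.5 and 38.6 CPM in shCtrl replicates 1, 2 and 3 and 22.7, 26.1 and 25.8 CPM in shAC007128.1 replicates 1, 2 and 3. No samples overlapped, and the log2 fold change was -0.64 (± 0.09 SE, adjusted p = 0.00163 by edgeR). Its exons (chromosome 17, 68420948 to 68457513, minus strand) share 829 of 3403 bases with ARSG on the opposite strand. ARSG, at 6.1 CPM in shCtrl cells, fell as well, by 1.20 (edgeR adjusted p = 0.0307). Among its relatives, WDR45 fell by 0.74 (edgeR adjusted p = 0.00167), while WIPI2, which recruits ATG16L1, rose by a log2 fold change of 0.58 (edgeR adjusted p = 0.00398).

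ATG5, the subunit of the ATG8-conjugating complex, did not pass the test. It had 54.5, 51.6 and 37.1 CPM in shCtrl replicates 1, 2 and 3 and 45.9, 59.4 and 63.3 CPM in shAC007128.1 replicates 1, 2 and 3. The groups overlapped, and the log2 fold change was 0.23 (± 0.18 SE, adjusted p = 0.333 by edgeR). The 95% interval was -0.18 to 0.65. ATG5 (ENSG00000057663) lies on chromosome 6 from 106045423 to 106325791. Of the 10 genes in the conjugation and deconjugation list, 8 did not pass and 2 rose, a share close to the 21% of all genes tested that rose. These were ATG10, the E2-like enzyme for ATG12 (log2 fold change 0.57, edgeR adjusted p = 0.0144), and the protease gene ATG4C (0.66, edgeR adjusted p = 0.0229). Its median log2 fold change was 0.04.

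TFEB, the gene of a master regulator of lysosome biogenesis, was the lowest of the 10 per kilobase of exon and rose. Its levels were 6.77, 6.37 and 5.04 CPM in shCtrl replicates 1, 2 and 3 and 10.7, 9.85 and 8.62 CPM in shAC007128.1 replicates 1, 2 and 3. The groups did not overlap, with a log2 fold change of 0.68 (± 0.17 SE, adjusted p = 0.0149 by edgeR). Over the alternatives it was 0.56 to 0.77. Its paralog TFE3 fell from 105 ± 3.51 to 54.1 ± 7.06 CPM (SD, n = 3 each; log2 fold change -0.96, edgeR adjusted p = 0.000519). MITF fell too, by 0.34, and TFEC was at 0 to 5 counts. TFEB (ENSG00000112561) lies on chromosome 6 from 41683978 to 41736259 on the minus strand.

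**Figure D3:**
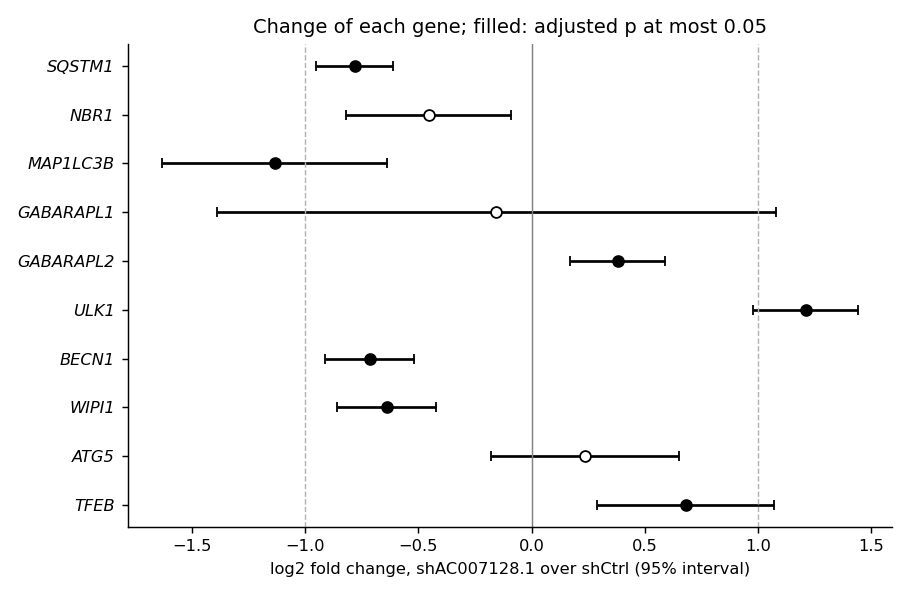
Log2 fold change of shAC007128.1 over shCtrl (horizontal axis) of the 10 genes with 95% intervals from the edgeR fit, unadjusted. Filled points have an adjusted p of at most 0.05, and dashed lines mark a log2 fold change of 1 in size. ULK1 is at 1.21 and MAP1LC3B at -1.13, and GABARAPL1 has the widest interval.

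For single genes the two-sided exact permutation test on log2 CPM gave p = 0.1, the smallest that 3 samples against 3 allow, for the 8 genes whose groups did not overlap. It gave 0.4 for ATG5 and 0.8 for GABARAPL1.

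On the scale of CPM per kb of exon, SQSTM1 was first and TFEB last in both groups. In shCtrl cells SQSTM1 led with 109.7 ± 2.86 CPM per kb (SD, n = 3). MAP1LC3B (31.6 ± 9.02), GABARAPL2 (22.1 ± 1.24), GABARAPL1 (22 ± 12.8) and NBR1 (15.6 ± 2.43) followed, and each of these overlapped its neighbour. WIPI1, BECN1, ATG5, ULK1 and TFEB came next, from 11.4 ± 0.368 down to 0.901 ± 0.134 CPM per kb, with no overlap between neighbours. In shAC007128.1 cells SQSTM1 still led, at 63.9 ± 5.06 CPM per kb, and TFEB was still last, at 1.45 ± 0.156. MAP1LC3B came in place 4 there, below GABARAPL2 and GABARAPL1, and its samples overlapped those of GABARAPL1 and NBR1. ULK1 was in place 9 in shCtrl and place 7 in shAC007128.1 cells, at 9.61 ± 0.274 CPM per kb, where it overlapped ATG5 and stood above WIPI1 and BECN1.

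Promoter windows from RefSeq (GRCh38.p14; 250 bases before and 50 after each annotated start) were found for all 10 genes, 16 windows in all. They were searched on both strands for the letters CACGTG (the E-box of the CLEAR type that MiT/TFE factors bind), TGATGNAA (the CARE type that ATF4 dimers bind), TGACNNNGC (the antioxidant type that NRF2 binds), and GAANNTTC or TTCNNGAA (the heat shock type). CACGTG was in 0 of the 16 windows and in 7.26% of all 35116 windows, and TGATGNAA in 0 of 16 and 3.62% of all. TGACNNNGC was in 1 window, of MAP1LC3B, and in 13.3% of all. A heat shock type match was in 1 window, of GABARAPL2, and in 13.5% of all. Both matches are shown with their flanks in lower case and the match in capitals, since they are the only ones for these letters.

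MAP1LC3B (antioxidant type, first base at -46 from the start): gcgagtcaccTGACCAGGCtgcgggctga

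GABARAPL2 (heat shock type, first base at -219 from the start): ccagttccccGAACATTCctgcgagcaa

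The GC box GGGCGG, a motif for SP1-like factors added after the first search had been seen, was in 14 of 16 windows and in 45% of all. Some genes have several of these windows. The windows without a GC box were the only BECN1 window and an ATG5 window at 27.7% G or C. Both end in bases typical of the end of an intron, so they may not be promoter sequence. They count among the 16 for every motif. The 120 bases before the start are printed for the 2 genes past the fold limit, which moved in opposite directions, and for WIPI1, which has the most GC boxes. Capitals mark GGGCGG or its complement, and each sequence reads 5′ to 3′ along the gene. The windows of 300 bases were 78.3%, 75.7% and 79.7% G or C for ULK1, MAP1LC3B and WIPI1, where the median over all windows was 58.7%. Windows of GABARAPL1 (51.7%), NBR1 (53% and 56.3%) and BECN1 (58%) were below that median. Those of SQSTM1, TFEB and GABARAPL2 were above it.

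ULK1 (chr12:131894502-131894621, plus strand): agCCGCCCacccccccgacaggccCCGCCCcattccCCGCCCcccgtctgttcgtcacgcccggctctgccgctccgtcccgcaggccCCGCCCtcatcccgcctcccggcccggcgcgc

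MAP1LC3B (chr16:87392216-87392335, plus strand): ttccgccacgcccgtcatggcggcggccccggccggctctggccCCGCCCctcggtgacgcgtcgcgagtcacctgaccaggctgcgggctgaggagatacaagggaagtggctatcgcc

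WIPI1 (chr17:68457497-68457616, minus strand): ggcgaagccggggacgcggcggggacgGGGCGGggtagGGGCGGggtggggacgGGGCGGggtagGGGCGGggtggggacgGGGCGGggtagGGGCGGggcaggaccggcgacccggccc

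ULK1 holds 4 GC boxes in these 120 bases, MAP1LC3B 1 and WIPI1 6. These matches are letters in a reference sequence and were not measured as bound sites.

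The 10 genes were set beside the rest of the pathway through 10 lists by role, which name 125 genes with the 10 included. Of the 119 that were tested, 42 rose (35.3%), 21 fell (17.6%) and 56 did not pass, with a median log2 fold change of 0.14. Among all genes tested, 21% rose and 19.8% fell. Without the 10 genes, 39 of 109 rose and 17 fell. Of 20 tested lysosomal genes, 11 rose and 1 fell (median 0.51), and of 21 tested genes of nutrient and energy signaling, 9 rose and 2 fell (median 0.36). Of 9 tested transcription factor genes, 2 rose and 4 fell (median -0.34).

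Among lysosomal genes, GLA, which encodes alpha-galactosidase, had a log2 fold change of 1.41 (± 0.09 SE, adjusted p = 5.26e-05 by edgeR). ATP6V0D2, a subunit of the proton pump that acidifies lysosomes, rose from 2.41 ± 0.181 to 9.5 ± 0.855 CPM (SD, n = 3 each), a log2 fold change of 1.97 (edgeR adjusted p = 0.000115). PSAP, the prosaposin gene, was the only gene of the lysosomal list that passed the test downward, by 0.27 (edgeR adjusted p = 0.00677). TPP1 (log2 fold change -0.42, edgeR adjusted p = 0.0521) and NEU1 (-0.59, edgeR adjusted p = 0.0975) were lower by more but did not pass. In this list 5 genes were past the fold limit upward and 0 downward by edgeR, where 5.57% of all genes tested were past it upward and 10.1% downward.

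In the upstream list the 2 genes that fell did so steeply. SESN2, a leucine-binding inhibitor of mTORC1 signaling, fell from 130 ± 3.34 to 28.9 ± 3.26 CPM (SD, n = 3 each), a log2 fold change of -2.17 (± 0.10 SE, adjusted p = 2.37e-05 by edgeR). DDIT4 (REDD1), another inhibitor of mTORC1, fell by 1.69 (edgeR adjusted p = 0.00014). The sestrin paralogs SESN1 and SESN3 rose, by log2 fold changes of 0.74 (edgeR adjusted p = 0.00546) and 1.44 (edgeR adjusted p = 0.002). RRAGC, a Rag GTPase that recruits mTORC1 to lysosomes, rose by a log2 fold change of 1.18 (edgeR adjusted p = 7.9e-05). In the transcription factor list, DDIT3 (CHOP) fell most, by 2.82 (edgeR adjusted p = 0.000143). ATF4, whose product can activate autophagy genes under amino acid or ER stress, fell by 0.67 (edgeR adjusted p = 0.000749). In the same samples SQSTM1 and MAP1LC3B fell, GABARAPL2, GABARAP and ATG10 rose, and ATG5 did not pass. Whether these changes are linked was not tested. Of the 1307 exonic bases of DDIT3, 518 are shared with other genes.

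Of 20 genes in the cargo receptor list, 5 rose, 3 fell and 12 did not pass, with a median of 0.00. The list includes KEAP1, a binding partner of p62 rather than a receptor, which did not pass. Those shares, 25% higher and 15% lower, were near the 21% and 19.8% of all genes tested. Those that rose included BNIP3L (NIX), a receptor for mitochondria (log2 fold change 0.88, edgeR adjusted p = 0.000181), and WDFY3 (ALFY), which binds p62-marked aggregates (0.77, edgeR adjusted p = 0.000555). The ubiquitin-binding receptors OPTN, CALCOCO2 and TAX1BP1, which share their class with SQSTM1 and NBR1, had log2 fold changes of -0.10, -0.07 and 0.16 and did not pass. For fusion with lysosomes, 4 of 14 genes rose and 3 fell (28.6% and 21.4%, beside the same 21% and 19.8%), among them the tether gene EPG5 (0.70, edgeR adjusted p = 0.00138) and the HOPS subunit gene VPS41 (0.39, edgeR adjusted p = 0.0126), both higher.

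**Figure D4:**
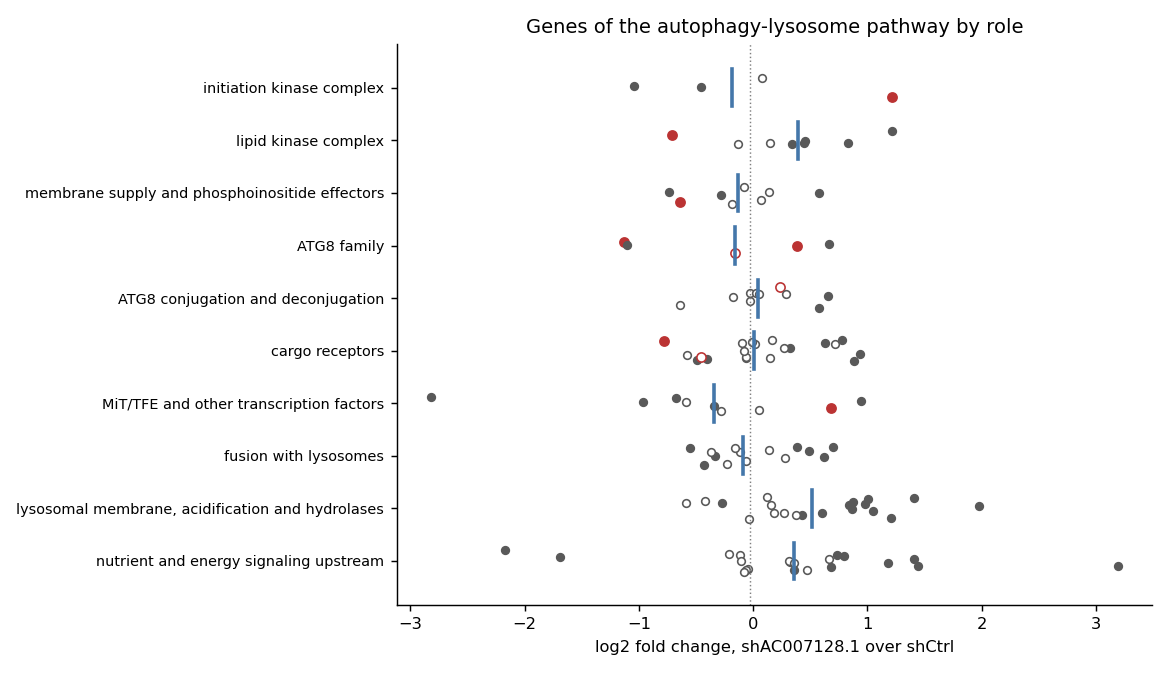
Log2 fold change of shAC007128.1 over shCtrl (horizontal axis) of each tested gene in the 10 role lists (rows; vertical scatter within a row has no meaning). Red points are the 10 genes and grey points the others, filled where the adjusted p is at most 0.05. Blue bars are list medians and the dotted line is the median of all genes. The lysosomal list has the highest median, 0.51.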

How the data were processed

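KYSE150 RNA was sequenced as poly-A, paired-end TruSeq libraries. The authors filtered the reads and mapped them to hg38 with TopHat. The submitters' processing notes name CASAVA 1.8 and TopHat2 2.0.6, and list mm10 beside GRCh38. For each Ensembl identifier the authors deposited estimated counts, in whole numbers and without normalization, while the study's methods describe FPKM values from Cufflinks. The counting program, the annotation and strand use are not given in the sources used here. Columns were matched to samples by their names, and 0 sample columns were left unmapped. Nothing says whether the samples were separate cultures, so p-values measure the spread between these samples only.

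Genes were filtered with filterByExpr (47886 identifiers removed), given TMM factors, and compared by the quasi-likelihood test of edgeR 4.0.16 (R 4.3.3). A gene passed where p, adjusted by Benjamini-Hochberg, was 0.05 or less. The fold limit was a log2 fold change of 1 in size. Standard errors are the log2 fold change over the root of F. The 95% intervals use the degrees of freedom of the fit. At these depths 3 counts correspond to 0.0373 to 0.0546 CPM, which covers counting error only. Low counts pile up at multiples of 4. Positions and exon lengths come from GENCODE v44 (hg38). Exonic bases are also shared with other genes by ATG14 (1047 of 5025), ATG101 (614 of 3195) and RRAGC (1183 of 5116). GLA (557 of 6195), ATP6V0D2 (502 of 2940) and ATG10 (374 of 5445) share some as well. Among the lysosomal genes that rose, CTSD (2737 of 5697) and CTSA (1857 of 8633) share the most, and CTSD was past the fold limit. This list is not complete. The fit was tested on simulated counts with the same dispersion for every gene and no piling at multiples of 4. That test cannot show how the fit behaves with the spread of these data.

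Alternatives were DESeq2 1.42.0, limma-voom (limma 3.58.1), edgeR with DESeq2 size factors or with unscaled library sizes, all genes kept, a minimum of 10 counts throughout, the replicate block, counts divided by 4, thinning to the smallest total, and each sample left out. The genes, lists and tests were chosen with earlier results of these data known. Genes named are the 10 genes, AC007128.1, the other ATG8 genes, the 2 genes with the smallest p among those that passed in each role list, and the 3 genes nearest in profile to SQSTM1 and MAP1LC3B. Overlapping genes and other genes named were chosen after their values were seen, as was the GC box. No protein sequences were used here.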

Additional observations from a re-analysis of the deposited data

How the results depend on the processing

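The counts of the 10 genes that rose (3) and fell (4) were within 1.5 times of these values in all 15 alternatives. Between 2 and 3 were higher and between 4 and 5 lower, and the counts over the role lists and over all genes also stayed within 1.5 times. ULK1, SQSTM1, MAP1LC3B, BECN1 and WIPI1 kept their direction and passed in every alternative, and TFEB did so with an adjusted p of at most 0.05. GABARAPL2 missed the threshold without shCtrl replicate 3 (adjusted p = 0.0538). NBR1 passed in 8 alternatives, DESeq2 among them (adjusted p = 0.0134), and over all 15 had adjusted p = 0.0134 to 0.163 and log2 fold changes of -0.61 to -0.32. Leaving out 1 sample gave GABARAPL1 log2 fold changes of -0.459 to 0.411, and it changed sign without shCtrl replicate 1 (0.411) and without shAC007128.1 replicate 3 (0.215). The cause was not tested. Same-numbered samples of the groups did not deviate together (correlations 0.031, -0.025 and -0.03), so no pairing by number was seen in the values. Whether same-numbered samples were prepared together is not given, and these correlations cannot settle it. With the replicate block 3 of the 10 genes rose and 4 fell, and 39 role list genes rose and 18 fell. In that fit 3524 of all 19254 genes tested rose and 3256 fell. The block changed no call among the 10 genes. Of the other named genes, MAP1LC3B2, ATG10, ATG4C and VPS41 each missed the threshold in 2 fits that left out 1 shCtrl sample. Library size only moved the median of all genes most, by -0.07.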

Other observations

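The genes whose profiles over the 6 samples lay closest to that of SQSTM1, by Euclidean distance of centred log2 CPM among 12634 genes, were EDEM2 (distance 0.045), FZD2 (0.046) and AP1M2 (0.051). Their log2 fold changes were -0.80, -0.80 and -0.77. MAP1LC3B, with its low shCtrl replicate 2, had no neighbour as close: CLDN7 lay at 0.289, SINHCAF at 0.345 and ENSG00000261324 at 0.366. CTSL and RRAGD, a lysosomal protease gene and a Rag GTPase gene, were listed at 0 in all 6 samples. In a table of estimated counts a 0 can also be a failed estimate. PRKAA2, which encodes an AMPK catalytic subunit, had 4, 0 and 4 counts in shCtrl replicates 1, 2 and 3. In shAC007128.1 replicates 1, 2 and 3 it had 16, 20 and 24. All are multiples of 4, so its fitted log2 fold change of 3.19 (± 0.90 SE) rests on few counts and perhaps fewer fragments. It is among the 9 upstream genes counted above as risen. The other catalytic subunit gene, PRKAA1, went from 112 ± 1.69 to 194 ± 30.2 CPM (SD, n = 3 each; log2 fold change 0.80).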
